A study of Mus musculus with 20 samples.

Results

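The IGF axis genes described here are Igf1, Igf1r, Ghr, Igfbp1, Igfbp3, Igfbp4 and Igfbp5, and their members are the probe sets that the platform annotation assigns to 1 of these genes and to no other. By that rule 12 of the 12422 probe sets on the array belonged to the axis: 2 for Igf1, 1 for Igf1r, 2 for Ghr, 2 for Igfbp1, 2 for Igfbp3 and 3 for Igfbp4. Igfbp5 had 0 members, because the 1 probe set that lists it lists a second gene as well, so 6 of the 7 genes were measured. A filter on dim probe sets, set at a mean intensity of 79.44, kept 10 of the 12 members, and at least 1 for each of the 6 genes.

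Kidney RNA was measured on 20 arrays, each hybridised with RNA pooled from 3 mice of the C57BL/6J strain. Normal and Hyp mice were each fed a control or a low phosphate diet, which gives 4 groups of 5 arrays. Hyp mice model X-linked hypophosphatemia through a mutation in Phex, and the labels used here do not state the age of the mice. Diets were fed for 5 days on 12 arrays and for 3 days on 8, and 12 arrays came from males and 8 from females. Whether the pools of a group came from separate litters or days is not stated, so p-values measure the spread between pools, and the RNA is from whole kidney, in which fewer cells of a type and less RNA per cell cannot be told apart.

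The sample titles number the arrays 01 to 20, and they run in sets that share sex and days. Arrays 01 to 04, 09, 10, 19 and 20 were males at 5 days, arrays 05 to 08 females at 5 days, arrays 11 to 14 males at 3 days and arrays 15 to 18 females at 3 days. Arrays 01 to 04, 05 to 08, 11 to 14 and 15 to 18 hold 1 array of each group, arrays 09 and 10 are both Hyp and arrays 19 and 20 are both normal. What these runs of titles stand for is not stated. Arrays 05 to 08 stood apart: their 3′ to 5′ ratio of actin control signals was 1.74 to 2.61, against 1.22 to 1.27 on arrays 01 to 04 and 1.39 to 1.98 on the others, and their median Spearman correlation with the other arrays was 0.895 to 0.934, against 0.943 to 0.969. The kidney label was borne out by its defining markers, with the proximal tubule phosphate transporter Slc34a1 at 8769.5 to 17165.9 and the thick ascending limb protein Umod at 7433.9 to 12084.3 on every array. Array 10 (Hyp, low phosphate diet) carried liver transcripts, with albumin (Alb) at 13096.7 against 90.3 to 1226 on the other 19 arrays.

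Growth hormone acts through its receptor, Ghr, to raise production of insulin-like growth factor 1, which signals through the receptor tyrosine kinase Igf1r. In blood and tissue fluid most of the ligand is held by IGF binding proteins, which prolong its life, carry it and limit its access to the receptor. In the kidney the axis is known for its part in growth, filtration and tubular phosphate reabsorption. The comparisons below ask how kidney transcripts of this axis stand under phosphate restriction and in Hyp mice, and how they stand at 3 and 5 days on diet.

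The diet and the genotype moved 0 of the 10 members past the threshold, an adjusted p of 0.05 in limma with Benjamini-Hochberg adjustment over all 8695 probe sets tested. For diet in normal mice the share called among all probe sets was 0.184%, for diet in Hyp mice 0.15%, for genotype on control diet 0.253%, for genotype on low phosphate diet 0.357%, for the interaction of genotype and diet 0.046%, for diet averaged over genotypes 0.472% and for genotype averaged over diets 1.28%, so a count of 0 among 10 is near the background in each. At an unadjusted p under 0.05 the members held 1 (Igfbp1) for diet in normal mice, where 8.56% of all probe sets passed, 1 (Igfbp1) for diet averaged over genotypes, where 9.75% passed, 1 (Igf1) for genotype averaged over diets, where 15% passed, and 0 in the other 4 comparisons. The smallest adjusted p of a member in these 7 comparisons was 0.263, and 0.178 over every alternative setting tried, with the array set as a random block among them. The median log2 difference of the members was -0.02 for diet in normal mice and -0.07 for diet in Hyp mice, against 0.01 and 0.00 over all probe sets. It was 0.12 for genotype on control diet, -0.01 for genotype on low phosphate diet and -0.12 for the interaction, against 0.02, 0.02 and -0.00. For diet averaged it was -0.04 and for genotype averaged 0.02, against 0.01 and 0.02.

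**Figure D1:**
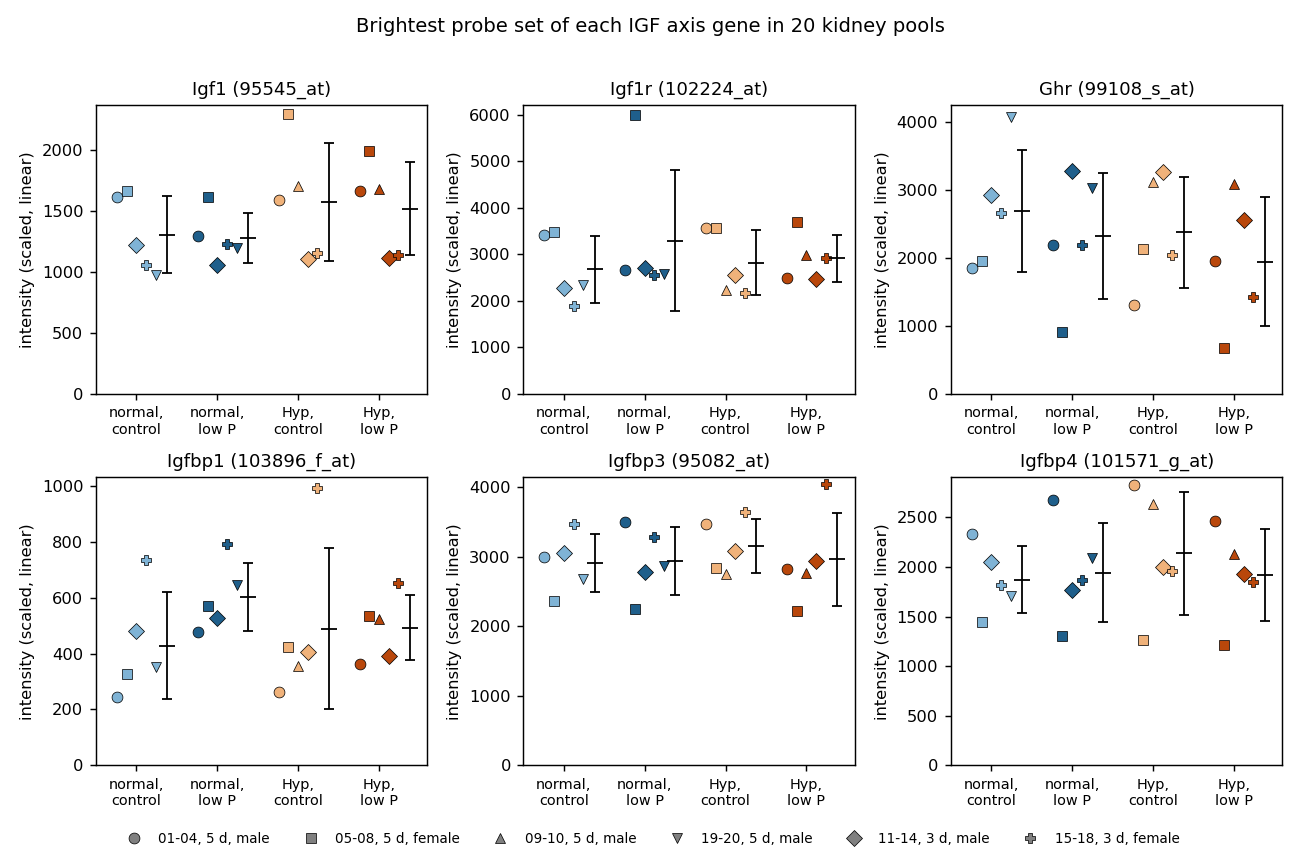
Scaled linear intensity (vertical axis) of the brightest probe set of 6 IGF axis genes in the 4 groups (horizontal axis; low P is the low phosphate diet); each point is 1 array, its shape gives the array's run of titles with days and sex, and the bar gives the mean ± SD of 5 arrays. The groups overlap in every panel, and the single high Igf1r point of normal mice on low phosphate diet is array 06 at 5992.5.

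**Figure D2:**
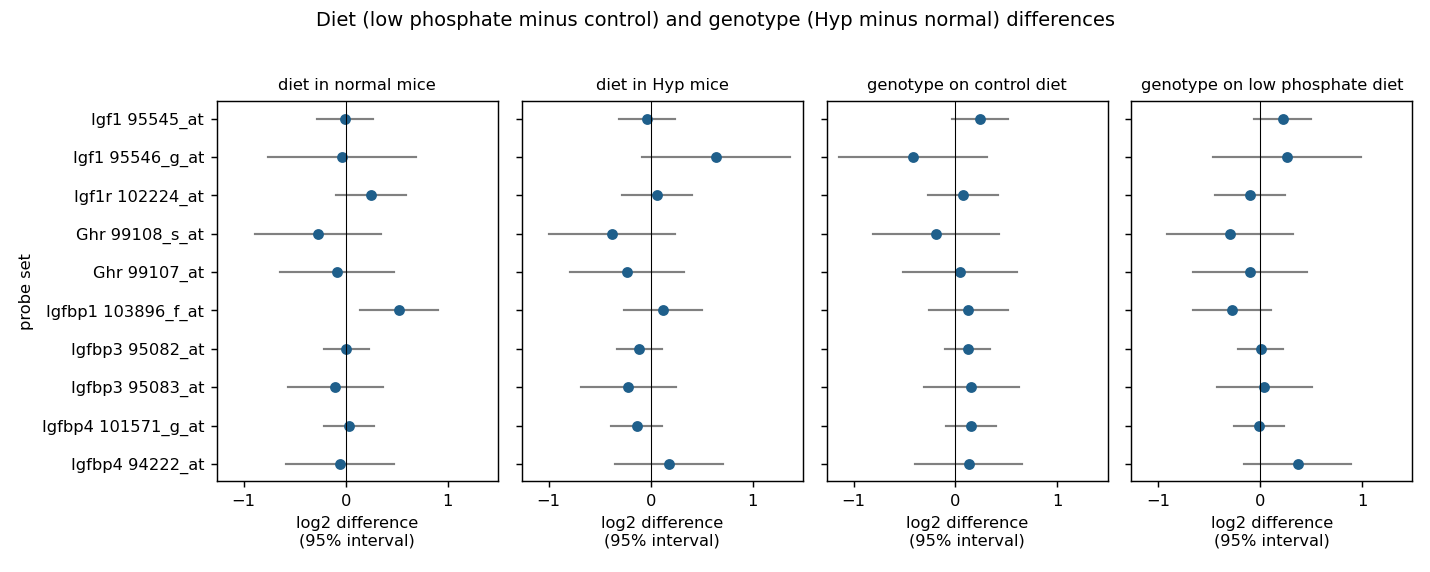
Log2 difference (horizontal axis, with its 95% interval) of the 10 members above the filter (vertical axis) in 4 comparisons; diet is low phosphate minus control and genotype is Hyp minus normal. The interval excludes 0 only for Igfbp1 on diet in normal mice, at 0.143 to 0.909.

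Igf1, the ligand of the axis, did not separate the diets. Its brighter probe set (95545_at; gene on chr10:87858265-87937047, GRCm38.p6) read 1612, 1661.2, 1222.4, 1052.9 and 972.7 in normal mice on control diet and 1291.9, 1612.3, 1059.2, 1227.2 and 1196.7 in normal mice on low phosphate diet. Among Hyp mice it read 1584, 2296.4, 1701.7, 1106.8 and 1156.9 on control diet and 1659.6, 1991.2, 1678.7, 1114.8 and 1133.4 on low phosphate diet. The 2 highest values came from Hyp mice, on arrays 07 and 08, while the ranges of all 4 groups overlapped between 1114.8 and 1612.3. Group means were 1304 ± 317 and 1277 ± 206 (SD, n = 5) in normal mice on control and low phosphate diet, and 1569 ± 482 and 1516 ± 381 (SD, n = 5) in Hyp mice. The diet difference was -0.01 ± 0.13 on the log2 scale (SE; 95% interval -0.286 to 0.266) in normal mice and -0.03 ± 0.13 (SE; -0.311 to 0.241) in Hyp mice.

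The genotype difference of Igf1 was positive on both diets without passing the threshold. Hyp minus normal was 0.24 (95% interval -0.034 to 0.518) on control diet and 0.22 (-0.059 to 0.493) on low phosphate diet. Averaged over diets it was 0.23 ± 0.09 (SE; unadjusted p = 0.0238 in limma, adjusted p = 0.263). Within runs of titles that hold all 4 groups, Hyp was higher than normal in 2 of 4 pairs on control diet and in 3 of 4 on low phosphate diet. Arrays 09, 10, 19 and 20, which put 2 Hyp arrays beside 2 normal arrays of other title numbers, weighed on this value: without them it was 0.13 (adjusted p = 0.596), and without arrays 05 to 08 it was 0.19 (adjusted p = 0.434). At 3 days alone it was -0.01 and at 5 days alone 0.39 (adjusted p = 0.28). The difference between those, genotype by days, was 0.40 (unadjusted p = 0.0413, adjusted p = 0.923 in limma).

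The dimmer Igf1 probe set (95546_g_at), with intensities of 38.1 to 268, did not track the brighter one. Over the 20 arrays their log2 values had a Pearson r of 0.069, so the Igf1 values rest on 1 probe set. In the dim probe set the diet difference in Hyp mice was 0.64 ± 0.34 (SE), with an interval of -0.081 to 1.366 (adjusted p = 0.998 in limma).

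Igf1r, the receptor tyrosine kinase for the ligand (gene on chr7:67952257-68233668), is read by 1 probe set (102224_at). Its intensities were 3405, 3489.7, 2282.1, 1885.4 and 2334.4 in normal mice on control diet and 2658.1, 5992.5, 2702.7, 2563.6 and 2569.2 on low phosphate diet. In Hyp mice they were 3555.8, 3572.8, 2242.5, 2546.4 and 2160.9 on control diet and 2488.2, 3697.3, 2987, 2467 and 2923 on low phosphate diet. Array 06 stood far above the rest, the other 4 arrays of its group lay within 2563.6 to 2702.7, and the groups overlapped. The diet difference was 0.25 ± 0.16 (SE; adjusted p = 0.742 in limma) in normal mice and 0.07 ± 0.16 (adjusted p = 0.998) in Hyp mice. On control diet Hyp exceeded normal in 4 of 4 pairs, by only 0.034 to 0.193 on the log2 scale, and on low phosphate diet in 1 of 4.

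Ghr, the growth hormone receptor (gene on chr15:3317755-3583352), is read by 2 probe sets above the filter, which moved together over the 20 arrays with a Pearson r of 0.663. The brighter (99108_s_at) read 1849.5, 1952.7, 2925.3, 2658 and 4074.8 in normal mice on control diet, and 2197.2, 911.8, 3281.4, 2183.6 and 3035.9 on low phosphate diet. Hyp mice read 1310.4, 2130.7, 3123.9, 3268.9 and 2045.1 on control diet and 1961.9, 675.8, 3090.2, 2565.5 and 1429.4 on low phosphate diet. The 2 lowest values belonged to the low phosphate arrays 06 and 08, which the second probe set (99107_at) also placed near the bottom, at 726.8 and 850.8. Otherwise the groups overlapped over most of their range. Diet differences of the brighter probe set were -0.27 ± 0.29 (SE; adjusted p = 0.88 in limma) in normal mice and -0.38 ± 0.29 (adjusted p = 0.998) in Hyp mice, and those of the second were -0.08 and -0.23. On low phosphate diet Hyp lay below normal in 4 of 4 pairs of the brighter probe set, by 0.16 to 0.598 on the log2 scale. The fitted difference was -0.30 ± 0.29 (SE; adjusted p = 0.78 in limma). In the second probe set Hyp was lower in 3 of 4 pairs, with a range of -1.267 to 0.217. Its fitted difference was -0.10 ± 0.27 (SE; adjusted p = 0.938 in limma).

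Igfbp1 is the binding protein whose transcript is known to be held down by insulin and raised in fasting, chiefly in liver. Insulin is known to act on its promoter through an element bound by FoxO factors, so the 250 bases before its RefSeq start (chr11:7197537-7197786, plus strand, GRCm38.p6) are shown with the FoxO core CAAAACA in capitals:
Igfbp1: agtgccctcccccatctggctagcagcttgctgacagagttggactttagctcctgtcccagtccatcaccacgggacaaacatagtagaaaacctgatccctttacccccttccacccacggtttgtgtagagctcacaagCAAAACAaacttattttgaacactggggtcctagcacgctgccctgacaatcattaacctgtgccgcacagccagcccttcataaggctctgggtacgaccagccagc
The core lies 108 bases before the start and was searched on both strands. Among the 8 RefSeq windows of the 7 IGF axis genes it was found in 1, and among all 32851 windows of that length in 5.56%. The FoxO form GTAAACA was in 0 of the 8 windows and in 3.17% of all. TATAAA was in 2 of the 8 (1 of the 2 Ghr windows and Igfbp4) and in 12.4% of all. The letters TTCC with GAA after any 3 bases were in 0 of the 8 and in 3.27% of all. These matches are letters in a window and do not show that a factor binds there.

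Igfbp1 had the largest diet difference of the brightest probe sets in normal mice, and it missed the threshold. The probe set 103896_f_at read 244.1, 328.4, 480.2, 733.7 and 353.1 in normal mice on control diet (arrays 01, 05, 11, 15 and 19). On low phosphate diet normal mice read 476.8, 569.8, 527, 790.5 and 645.3 (arrays 02, 06, 12, 16 and 20). The groups overlapped, since array 15 on control diet exceeded 4 of the 5 arrays on low phosphate diet, yet within each run of titles the low phosphate array was the higher one, in 5 of 5 pairs, by 0.102 to 0.868 on the log2 scale. Counts of pairs were not tested, here or for the other genes, and 4 or 5 pairs can all share a direction by chance. Group means were 427.9 ± 191 and 601.9 ± 122 (SD, n = 5). The fitted difference was 0.53 ± 0.18 (SE; 95% interval 0.143 to 0.909; unadjusted p = 0.00998, adjusted p = 0.354 in limma), and adjusted p was 0.201 with the array set as a random block.

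In Hyp mice the same probe set read 263.3, 423.5, 355.8, 407.3 and 991.2 on control diet (arrays 03, 07, 09, 13 and 17), and 362.3, 535.9, 522, 392.2 and 650.5 on low phosphate diet. Array 17 exceeded every low phosphate array, and the other 4 control arrays, at 263.3 to 423.5, overlapped the low phosphate range of 362.3 to 650.5. The low phosphate array was the higher in 3 of 5 pairs, and the fitted difference was 0.12 ± 0.18 (SE; 95% interval -0.262 to 0.503; adjusted p = 0.998). Without array 17 it was 0.26. The interaction of genotype and diet was -0.41 ± 0.26 (SE; unadjusted p = 0.132), so the diet difference was not shown to differ between normal and Hyp mice. Hyp minus normal was 0.13 ± 0.18 (SE; adjusted p = 0.86 in limma) on control diet and -0.28 ± 0.18 (adjusted p = 0.667) on low phosphate diet. Hyp was higher in 3 of 4 pairs on control diet and lower in 4 of 4 on low phosphate diet, with a range of -0.393 to -0.083.

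Liver transcripts differed between the arrays as well. The summed intensity of the 8 hepatocyte markers on the array (of 10 listed) was 18250 on array 10 and 968.6 to 3264 on the remaining 19. The low phosphate array had the higher sum in 3 of the 6 pairs at 5 days, from 1245 to 2402 (arrays 05 and 06), from 1574 to 3264 (arrays 07 and 08) and from 1300 to 18250 (arrays 09 and 10), in 3 of the 4 pairs at 3 days and in 2 of the 5 pairs of normal mice. Array 10 read 522 for Igfbp1, inside the range of its group. Without it the diet difference of Igfbp1 was 0.02 in Hyp mice. The difference in normal mice, 0.53, does not draw on array 10, a Hyp array, so leaving that array out could not change it. In the other 3 pairs at 5 days the hepatocyte sum went from 1246 to 1042 (arrays 01 and 02), from 1267 to 1174 (03 and 04) and from 1382 to 1184 (19 and 20). Igfbp1 was higher on low phosphate diet in all 6 pairs at 5 days. Of the 6 hepatocyte probe sets tested, 5 had a positive diet by days difference (median 0.471), with 0 past the threshold in limma and 0 at an unadjusted p under 0.05. The part of liver RNA in Igfbp1 was not tested.

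**Figure D3:**
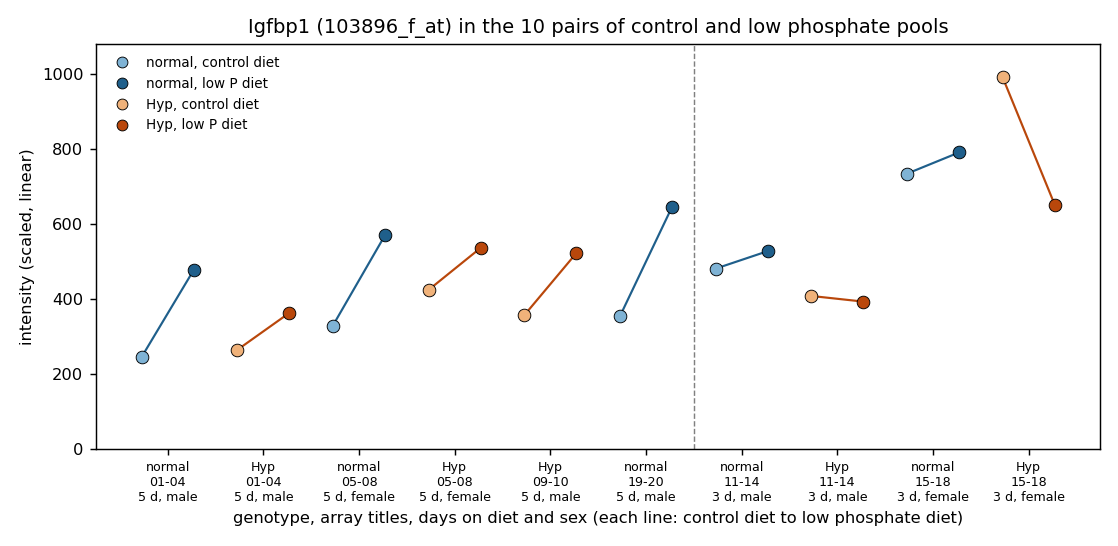
Igfbp1 intensity (vertical axis, scaled and linear) in the 10 pairs of control and low phosphate arrays that share genotype and run of titles (horizontal axis, with days on diet and sex); each line joins control diet to low phosphate diet, and the dashed line divides 5 days from 3 days. All 6 lines at 5 days rise, by 0.314 to 0.868 on the log2 scale, and 2 of the 4 at 3 days do.

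Split by days, the diet difference of Igfbp1 lay mostly at 5 days. The low phosphate array was the higher in 6 of 6 pairs at 5 days (mean log2 difference 0.606 ± 0.227, SD), normal and Hyp alike. At 3 days it was the higher in 2 of 4 pairs (mean -0.101 ± 0.329, SD), with a range of -0.58 to 0.125. Diet by days, the difference of those differences, was 0.71 ± 0.22 (SE; unadjusted p = 0.00601, adjusted p = 1 in limma), and 0 of the 8695 probe sets (0%) passed in that comparison, 276 of them (3.17%) at an unadjusted p under 0.05. The split by days therefore did not pass the test. Leaving out 1 array at a time gave 0.55 to 0.86, leaving out arrays 05 to 08 gave 0.75 (adjusted p = 0.999), and leaving out array 10 gave 0.65.

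The second Igfbp1 probe set (103897_r_at) lay below the filter at a mean of 25.69 and was not tested. Its values ran from 8.8 to 61.8, and its Pearson r with the brighter one was 0.051, so the Igfbp1 values rest on 1 probe set. Probe sequences were not examined, so whether 103896_f_at also reads similar transcripts of other genes is not known.

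Igfbp3, the main carrier of IGF-1 in blood, has its gene at chr11:7206086-7215498, 3539 bases from that of Igfbp1 (chr11:7197787-7202546). Its brighter probe set (95082_at) had means of 2914 ± 420 and 2935 ± 488 (SD, n = 5) in normal mice on control and low phosphate diet, and 3158 ± 390 and 2961 ± 671 in Hyp mice. These groups overlapped almost fully, between 2359.5 and 3474.6 in normal mice on control diet and between 2243.7 and 3504.6 on low phosphate diet. The diet difference was 0.01 ± 0.10 (SE; 95% interval -0.213 to 0.224) in normal mice and -0.11 ± 0.10 (-0.329 to 0.109) in Hyp mice. Hyp exceeded normal on control diet in 4 of 4 pairs, by 0.011 to 0.26 on the log2 scale, and in 2 of 4 on low phosphate diet. The second probe set (95083_at; Pearson r 0.682 with the first) was lower on low phosphate diet in 5 of 5 pairs of Hyp mice, by 0.001 to 0.542, with a fitted difference of -0.22 ± 0.22 (SE; adjusted p = 0.998 in limma). The neighbouring genes Igfbp1 and Igfbp3 thus gave different diet values in the same arrays; the difference between them was not tested.

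Igfbp4, a binding protein known to hold IGF-1 away from its receptor (gene on chr11:99040005-99052655), is read by 3 probe sets. The brightest (101571_g_at) had means of 1874 ± 338 and 1941 ± 498 (SD, n = 5) in normal mice on control and low phosphate diet, and 2136 ± 617 and 1918 ± 460 in Hyp mice. Its diet difference was 0.03 ± 0.12 (SE; 95% interval -0.216 to 0.278) in normal mice and -0.14 ± 0.12 (-0.384 to 0.111) in Hyp mice, in which the low phosphate array was the lower in 5 of 5 pairs, by 0.048 to 0.3. The second (94222_at) had a Pearson r of -0.231 with the first, and its spread was set by arrays 05, 08 and 09, at 1054.8, 1701.4 and 983.6 against 431.1 to 762.6 elsewhere. The third (101570_at), with a mean of 36.2, lay below the filter. The probe sets of Igfbp4 therefore disagree, and no direction is given for the gene.

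**Figure D4:**
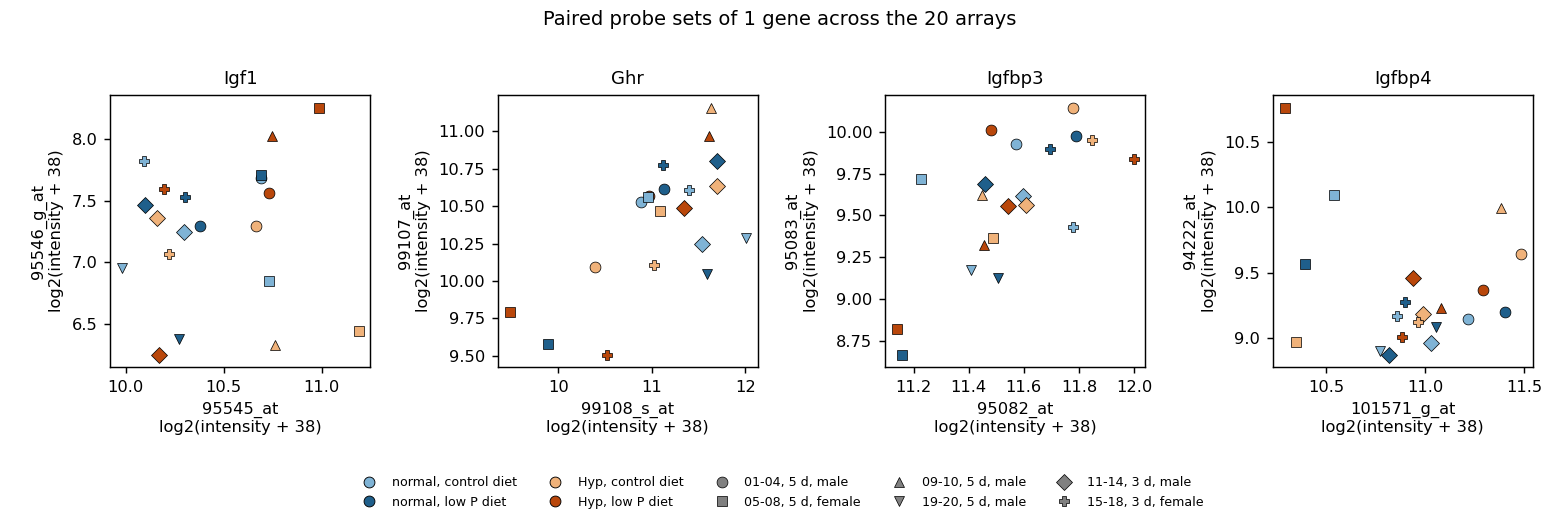
Log2(intensity + 38) of the brighter probe set (horizontal axis) against the dimmer (vertical axis) for the 4 genes with a pair above the filter; each point is 1 of 20 arrays, coloured by group and shaped by run of titles. The Ghr and Igfbp3 pairs rise together (Pearson r 0.663 and 0.682), and the Igf1 and Igfbp4 pairs do not (0.069 and -0.231).

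Days on diet separated more members than diet or genotype did. Between 5 and 3 days 4 of the 10 members passed the threshold, which is near the background of 40.9% of all probe sets: Igf1 and Igf1r were higher and Igfbp1 and Igfbp3 lower at 5 days. With the array set as a random block 1 of the 10 passed, Igf1, against 12.1% of all probe sets. Days cannot be told apart from the runs of titles they lie in, and animals at 3 and 5 days were different pools.

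Igf1 was higher at 5 days, by 0.52 ± 0.10 on the log2 scale (SE; 95% interval 0.316 to 0.724; adjusted p = 0.000738 in limma; 0.0286 with the random block). The 8 arrays at 3 days were tightly grouped at 1052.9 to 1227.2 (median 1124), while the 12 arrays at 5 days ran from 972.7 to 2296.4 (median 1636). Of those, 10 lay at 1291.9 or above, clear of every 3-day array, and the other 2, arrays 19 and 20 (normal males), read 972.7 and 1196.7. The order by run of titles was 1612.3 to 2296.4 on arrays 05 to 08, 1678.7 to 1701.7 on arrays 09 and 10, 1291.9 to 1659.6 on arrays 01 to 04, and 972.7 to 1196.7 on arrays 19 and 20. Among males alone, and so without arrays 05 to 08 and 15 to 18, the difference was 0.34 (adjusted p = 0.28). With any single array left out the call held, at 0.49 to 0.57.

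Igf1r was higher at 5 days by 0.46 ± 0.12 (SE; adjusted p = 0.0064 in limma; 0.116 with the random block). Its values were 1885.4 to 2923 (median 2507) at 3 days and 2242.5 to 5992.5 (median 3196) at 5 days. The highest run was arrays 05 to 08, and among males alone the difference was 0.14 (adjusted p = 0.656).

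Igfbp1 was lower at 5 days, with a log2 difference of -0.47 ± 0.13 (SE; adjusted p = 0.011 in limma; 0.137 with the random block). It ran from 392.2 to 991.2 (median 588.8) at 3 days and from 244.1 to 645.3 (median 392.9) at 5 days, so the ranges overlapped. Among males alone the difference was -0.20 (adjusted p = 0.568).

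Igfbp3 (95082_at) was lower at 5 days, with a log2 difference of -0.29 ± 0.08 (SE; adjusted p = 0.00743 in limma; 0.0909 with the random block). It ran from 2775.8 to 4053.3 (median 3180) at 3 days and from 2218 to 3504.6 (median 2795) at 5 days. The 3 lowest arrays were 05, 06 and 08. Among males alone the difference was 0.00 (adjusted p = 0.989), with the sign turned.

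**Figure D5:**
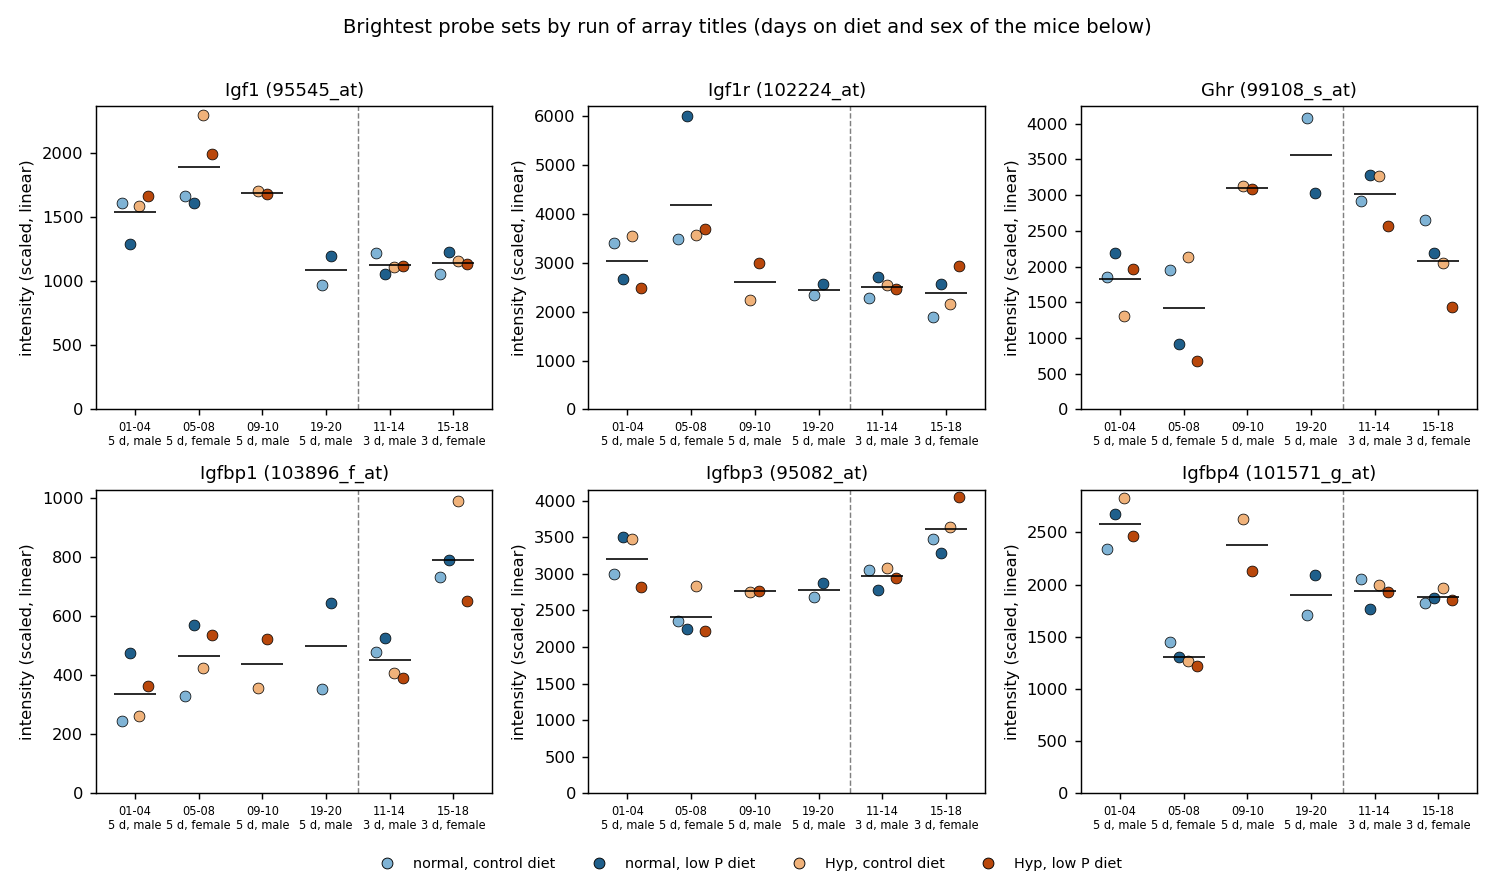
Scaled linear intensity (vertical axis) of the brightest probe set of 6 genes by run of array titles (horizontal axis, with days on diet, d, and sex); points are arrays coloured by group, short lines are means of the run, and the dashed line divides 5 days from 3 days. For Igf1 arrays 19 and 20, at 5 days, lie with the 3-day arrays, and for Igfbp4 arrays 05 to 08 lie below all others.

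Markers of other cell types differed between runs of titles. The summed intensity of the 5 adipocyte markers on the array (of 7 listed) was 1169 to 1886 on the 3-day arrays, 2889 to 4457 on arrays 01 to 08, 1990 and 3450 on arrays 09 and 10, and 1312 and 2576 on arrays 19 and 20. Of 5 adipocyte probe sets tested, 3 were called higher at 5 days, against 40.9% of all probe sets called by days. With the array set as a random block 3 were called higher as well, against 12.1% of all. The stroma and smooth muscle sum (10 of 10 markers) was 14150 to 16590 on arrays 05 to 08 and 8626 to 12680 on the others, and the collecting duct sum (4 of 10 markers) was 2838 to 3762 on arrays 05 to 08 and 3504 to 6590 on the others. The part of these cell types in the values of Igf1, Igf1r, Igfbp1 and Igfbp3 was not tested.

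Between the sexes 3 of the 10 members passed the threshold, against 16.6% of all probe sets. With the array set as a random block 0 of the 10 passed in limma, against 1.12% of all probe sets, and 3 did so at an unadjusted p under 0.05, against 14.9% of all. Igfbp4 (101571_g_at) was lower in females, with a log2 difference of -0.43 ± 0.09 (SE; adjusted p = 0.00358; 0.112 with the random block). All 4 arrays of females at 5 days, arrays 05 to 08, read 1215.1 to 1449.1, below every other array (1709.6 to 2825). Females at 3 days read 1818.7 to 1962.9 and males at 3 days 1764.4 to 2053.7, and within 3 days, without arrays 05 to 08, the difference was -0.04 (adjusted p = 0.858). The second Igfbp4 probe set (94222_at) had the opposite sign, at 0.27 ± 0.18 (SE; adjusted p = 0.326 in limma). No direction by sex is therefore given for the gene.

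Ghr (99108_s_at) was also lower in females, with a log2 difference of -0.74 ± 0.22 (SE; adjusted p = 0.0275 in limma; 0.237 with the random block). Within 3 days it was -0.55 (adjusted p = 0.177), with females at 1429.4 to 2658 and males at 2565.5 to 3281.4, which overlapped by 1 array of each. Leaving out any of arrays 06, 08, 12, 13, 14, 17 and 18 raised its adjusted p to 0.0517 to 0.0699, with differences of -0.73 to -0.62. The second Ghr probe set (99107_at) had the same sign without passing, at -0.36 ± 0.20 (SE; adjusted p = 0.216 in limma). Igfbp1 was higher in females by 0.49 ± 0.13 (SE; adjusted p = 0.0202; 0.275 with the random block), and by 0.75 within 3 days (adjusted p = 0.103), where females read 650.5 to 991.2 and males 392.2 to 527 and so did not overlap. Leaving out array 14, 15 or 17 put its adjusted p at 0.0521 to 0.0525, and without array 14 or array 17 only 1 of the 10 members, Igfbp4, passed.

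The remaining interactions gave 0 calls in limma, over the members and over all probe sets (0%). Genotype by days passed an unadjusted p under 0.05 in 424 of 8695 probe sets (4.88%) and in 1 member, Igf1. Diet by sex did so in 290 (3.34%) and in 1 member, Ghr (99108_s_at), at -0.90 (unadjusted p = 0.0383, adjusted p = 0.999), and genotype by sex in 509 (5.85%) and in 0 members. No alternative setting moved any of the 10 members past the threshold in the 4 interactions.

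Members varied together only in part. On log2 values centred within each of the 4 strata of sex and days, the largest correlation in size among the 6 brightest probe sets was that of Igf1r with Ghr, at a Pearson r of -0.604 over 20 arrays (-0.71 before centring), followed by Igfbp3 with Igfbp4 at 0.507 and Igf1 with Igfbp4 at 0.502. Igf1 and Igf1r had 0.601 before centring and 0.064 after it. The probe sets of 1 array share its RNA, scaling and run of titles, and the correlations are descriptions of 20 arrays.

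By the same centred measure the 3 probe sets most like Igf1 were those of Dct (0.935), a melanin pathway enzyme, Gpx1 (0.907), the glutathione peroxidase of the cytosol, and Prr13 (0.904). For Ghr they were Akr1c21 (0.942), a steroid reductase, Nit1 (0.881) and Acadm (0.872), the medium-chain acyl-CoA dehydrogenase of fatty acid oxidation. For Igf1r they were Hspa1a (0.767), a heat shock protein, Nelfa (0.753) and Hs2st1 (0.719), and for Igfbp1 Trim25 (0.799), BC005537 (0.782) and Ube2d2a (0.765). For Igfbp3 they were F11r (0.749), Ddr1 (0.687) and Iqgap2 (0.686), and for Igfbp4 Nudcd3 (0.887), Cyth3 (0.836) and Tnfrsf11a (0.816). The 3 for each member are the highest from a search of up to 8695 probe sets. How high the best of so many unrelated probe sets would reach was not tested, so no shared regulation is read from these values. Likeness here is within strata, and before centring Nudcd3 had -0.041 and Tnfrsf11a -0.333 with Igfbp4, and Ube2d2a 0.374, Hspa1a 0.393, F11r 0.406, Trim25 0.433 and Acadm 0.576 with their members, while the other 11 had 0.6 to 0.959.

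Of 73 other genes of growth hormone, IGF and insulin signalling, 49 were tested with 60 probe sets, and 0 of the 60 passed in any comparison of diet, genotype or their interaction in limma. At an unadjusted p under 0.05 the counts were 5 (8.33%, against 8.56% of all probe sets) for diet in normal mice and 2 (3.33%, against 4.59%) for diet in Hyp mice. For genotype they were 2 (3.33%, against 8.55%) on control diet and 1 (1.67%, against 9.47%) on low phosphate diet, and for the interaction 0 (against 3.23%). Averaged, they were 8 for diet (13.3%, against 9.75%) and 5 for genotype (8.33%, against 15%). The list's median log2 difference was 0.056 for diet in normal mice and 0.056 for diet in Hyp mice, against 0.012 and 0.005 over all probe sets. Closest to the threshold was Htra1, a secreted protease that can cut IGF binding proteins, at -0.28 ± 0.07 for diet averaged over genotypes (SE; adjusted p = 0.0763, and 0.0349 with the random block, where it was the 1 call). Its means were 2149 ± 270 and 1705 ± 225 (SD, n = 5) in normal mice on control and low phosphate diet and 2174 ± 413 and 1834 ± 203 in Hyp mice. Values for Foxo3, a FoxO factor, and Gab1 (160714_at), a docking protein of receptor kinases, were 0.34 ± 0.11 and 0.26 ± 0.09 (SE; adjusted p = 0.251 and 0.29).

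By days 30 of the 60 passed (50%), 13 higher and 17 lower at 5 days, against the background of 40.9%, and 11 (18.3%) did so with the random block, against 12.1% of all probe sets. Higher at 5 days were Gh, Igf2, Stat5a (2 of 2 probe sets), Socs1, Eif4ebp1, Grb10, Foxo4 and 1 of the 2 probe sets each of Stat3, Pik3ca, Gab1, Mtor and Bad. Lower were Insrr, Cish, Ptpn6, Sirpa (3 of 3 probe sets), Stat5b, Akt1, Akt2, Grb2, Tsc1, Shc1, Irs2, Sos2 and 1 of the 2 probe sets each of Pdpk1, Tsc2 and Bad. The other probe sets of Stat3, Pik3ca, Gab1, Mtor, Pdpk1 and Tsc2 did not pass, and those of all but Pdpk1 had the opposite sign, so no direction is given for Stat3, Pik3ca, Gab1, Mtor and Tsc2; the 2 probe sets of Bad passed in opposite directions. Among these Irs2, a docking protein of the insulin and IGF receptors, had a log2 difference of -1.13 ± 0.21 (SE; adjusted p = 0.00071 in limma; 0.0326 with the random block), and the kinase Akt2 -0.88 ± 0.08 (adjusted p = 1.3e-05; 0.00229). Of the transcription factors of growth hormone signalling, Stat5a was at 0.52 and Stat5b at -0.93 (adjusted p = 0.034 and 0.0388 with the random block). Stat5b is read by a dim probe set (92199_at), with group means of 78.78 to 124.7 and single arrays down to 18.4. These values lie near the filter of 79.44, so little weight can rest on the contrast with Stat5a. Insrr (group means 69.46 to 113.2, arrays down to 7.4) and Sirpa 95803_at (85.02 to 98.52, down to 15.4) were as dim. Ptpn6 (105.7 to 127.9, down to 24.8) and Socs1 (109.9 to 154.1, down to 28.6) were little brighter. Further probe sets of Grb10, Igf2, Tsc1, Shc1 and Tsc2 lay below the filter and were not tested.

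By sex 11 of the 60 passed (18.3%), against 16.6% of all probe sets. Jak2, Foxo3 and 1 of the 2 probe sets each of Pdpk1 and Stat5a were higher in females. Htra1, Stat5b, Grb2, Akt2 and 1 of the 2 probe sets each of Mtor, Pik3ca and Bad were lower. With the random block 1 (1.67%, against 1.12% of all) passed, Akt2, at -0.67 ± 0.08 without that block (SE; adjusted p = 0.0115 with it).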

How the data were processed

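The authors deposited linear intensity values, 1 for each probe set on each array, scaled to a common trimmed mean: leaving out 2% at both ends, it was 500.254 to 500.309 on the 20 arrays. Their software is not given in the labels used here. All 20 columns were used. Of 12488 probe sets, 66 controls were set aside. Symbols came from the platform annotation, matched by gene number to RefSeq (10817 of 10833 single-gene probe sets, 0 symbols changed).

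An offset of 38 (20th percentile) was added before log2, which understates the change of dim probe sets, and those with a mean below the 30th percentile were left out. The remaining 8695 entered a linear model over the 20 arrays (limma 3.58.1, R 4.3.3) with 4 groups and 4 strata of sex and days (13 residual degrees of freedom; 10 for interactions with days or sex). Tests were two-sided, and p-values took the Benjamini-Hochberg adjustment over the 8695 probe sets (threshold 0.05). Log2 differences are low phosphate minus control diet, Hyp minus normal, 5 minus 3 days and female minus male. The code was tested on simulated data. The number of arrays limits the precision.

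All member probe sets are named, and a gene is led by its brightest. Pathway genes are named where they passed a threshold, and otherwise the 3 with the smallest p for diet or genotype. The 3 probe sets most like each member were taken by Pearson r. Members and lists were chosen with earlier results of these data known. Promoter letters are from RefSeq (GRCm38.p6). Alternatives changed the offset, scaling, filter, variance model, covariates and arrays; the array set as a random block (duplicateCorrelation, correlation 0.303) was added after seeing the data.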

Additional observations from a re-analysis of the deposited data

Results flagged for a closer look

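In 4 of 48 groups of 5 arrays, 1 array lay far from the other 4 by Dixon's criterion (gap over range above 0.71). That criterion flags about 1 in 20 groups whose 5 arrays differ by chance alone. Each group here mixes sexes and days, and the probe sets are read on the same arrays, so that rate need not apply. Igf1r (102224_at) in normal mice on low phosphate diet read 5992.5 on array 06, against 2563.6 to 2702.7 on the others (gap over range 0.959). Igfbp1 (103896_f_at) in Hyp mice on control diet read 991.2 on array 17, against 263.3 to 423.5 (0.78). Igfbp4 (94222_at) read 1054.8 on array 05 in normal mice on control diet, against 439.3 to 536.2 (0.843), and 1701.4 on array 08 in Hyp mice on low phosphate diet, against 475.8 to 665.7 (0.845). Of the 4 arrays, 3 belong to arrays 05 to 08. Array 17 does not.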

How the results depend on the processing

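The count of 0 members past the threshold for diet, genotype and their interaction stayed at 0 in each alternative that was run. Over 2553 alternative values of the 10 members in those 7 comparisons, 0 crossed the threshold, 2365 kept their sign and 188 changed it. In the 4 interactions with days or sex 0 of 1316 values crossed the threshold and 120 changed sign. The count by days, 4 as reported, was 0 among males only and 1 with the array set as a random block; leaving out each array in turn gave 4 to 6. The count by sex, 3 as reported, was 0 within 3 days only and 0 with the random block; leaving out each array gave 1 to 4, with 1 without array 14 and 1 without array 17. Igfbp3 (95082_at) by days turned to 0.0036 among males only. Other settings added calls by days: Ghr (99108_s_at) with array weights (adjusted p = 0.0148) and without arrays 09, 10, 19 and 20 (0.0134), Igfbp3 (95083_at) with the array set as a fixed term (0.0281), Igfbp4 (101571_g_at) in females only (0.025) and Igfbp4 (94222_at) under 4 settings (0.0165 to 0.0497). By sex Igf1r was added within 5 days only (0.0454). Leaving out array 07 added Ghr (0.0291) and Igfbp4 94222_at (0.00217) by days and the latter by sex (0.0305), leaving out array 05 added Igfbp3 95083_at (0.043) by days, and leaving out array 16 or 19 added Igfbp4 94222_at by days (0.0495 and 0.0475). The cause was not tested, though subsets of one sex or one time hold fewer arrays. Arrays 05 to 08 hold all females at 5 days, so without them days averaged over both sexes and sex averaged over both times could not be fitted; males only and 3 days only give the values that leave them out. The labels give every array a number of its own, so numbers pair no samples between groups, and the run of titles was used as the block instead: as a fixed term in place of the strata it gave 0 members in each comparison of diet and genotype, 5 by days and 3 by sex. The deposited values carry no background estimate, so dim probe sets have no measured floor.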
